A study of Rattus norvegicus with 9 samples.

Results

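Notch signalling genes were followed in primary rat osteoblasts given thrombin, alone or with the MEK inhibitor PD0325901 (PD03). The 9 genes considered were chosen by symbol: the receptors Notch1, Notch2 and Notch3, the ligands Jag1 and Dll1, and the target genes Hes1, Hey1, Hey2 and Heyl. All 9 were found, once each, among the 19085 genes of the deposited table, and 6 of them had enough reads to be tested. Messenger RNA had been sequenced in 9 libraries, with 3 per group. All groups were cells from the calvaria of newborn male Sprague-Dawley rats kept for 7 days in osteogenic induction medium containing β-glycerophosphate, ascorbic acid and dexamethasone. The control group received nothing further, thrombin was added at 20 U/mL in a second group, and the PD03 group was given the same dose of thrombin together with PD03 at 0.1 μM by the series' design text (a protocol in the sample labels gives the same figure in mM). Every PD03 library therefore also carries thrombin, and no group received PD03 alone. The tissue field of the labels reads knee, whereas their growth protocol gives the calvaria.

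Notch receptors are single-pass membrane proteins that are activated by ligands of the Jagged and Delta families on a neighbouring cell. Ligand binding lets ADAM proteases and then the γ-secretase complex cut the receptor, and the released intracellular part enters the nucleus, joins the DNA-binding protein RBPJ and switches on genes of the Hes and Hey families, which encode basic helix-loop-helix repressors. In the osteoblast lineage Notch signalling is best known for holding back differentiation, and inherited changes of NOTCH2 and JAG1 cause human syndromes with skeletal features.

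Library totals lay between 15447832 and 19841468 counts. Genes were kept for testing when enough libraries reached about 10 counts, which left 13256, and p-values were adjusted over all of these. A gene was called when its adjusted p in edgeR's quasi-likelihood test was under 0.05 and its log2 fold change exceeded 0.58 in size. By that rule thrombin against control called 8.06% of tested genes (2.62% higher, 5.44% lower), PD03 against thrombin 15.9% (9.61% higher, 6.31% lower) and PD03 against control 8.97% (4.90% higher, 4.07% lower). With no fold threshold the shares were 28.7%, 49.8% and 39.9%. With libraries scaled by their totals in place of TMM, the median log2 change over all tested genes shifted by -0.10 in PD03 against thrombin and by -0.12 in PD03 against control, and the share of called genes that were higher went from 60.4% to 46.5% and from 54.6% to 34.1%. The osteoblast genes Col1a1, Col1a2 and Sparc were abundant, whereas the late markers Bglap, Ibsp and Dmp1 had at most 5 counts in any library. The labels do not say whether the samples of a group came from separate animals or cultures, so p-values measure the spread between these samples.

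Of the 9 Notch genes, thrombin against control called 2, both lower (Jag1 and Notch3), PD03 against thrombin called 1 higher (Jag1) and 2 lower (Notch2 and Hes1), and PD03 against control called 1, lower (Hes1). Jag1 fell 2.55-fold with thrombin and was 3.10-fold higher with PD03 than with thrombin. Hes1 and Notch2 stood highest in the thrombin group and lowest in the PD03 group. Hey1, Hey2 and Heyl were near the limit of detection. The thrombin libraries enter both of the first comparisons, so the opposite signs of a gene in them are not independent.

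Set side by side per gene length, the members spanned more than 3 orders of magnitude. Levels here are FPKM as deposited (counts divided by gene length and library total), given as mean ± SD (n = 3). In the control group Notch2 led at 38.8 ± 1.12 FPKM and Hes1 followed at 12.5 ± 0.929 FPKM. Jag1 came next at 2.18 ± 0.0891 FPKM, then Notch1 at 1.44 ± 0.0385 FPKM and Dll1 at 1.03 ± 0.103 FPKM, and none of these 5 overlapped its neighbour between libraries. Notch3 stood at 0.170 FPKM, and below Dll1 the neighbours in the order (Notch3, Hey2, Heyl, Hey1) overlapped. With thrombin the order of Jag1 and Notch1 was exchanged, and Jag1 (0.839 ± 0.136 FPKM) overlapped Dll1 (0.813 ± 0.140 FPKM). In the PD03 group the order of the upper 5 was that of the control group, again without overlap between neighbours.

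**Figure D1:**
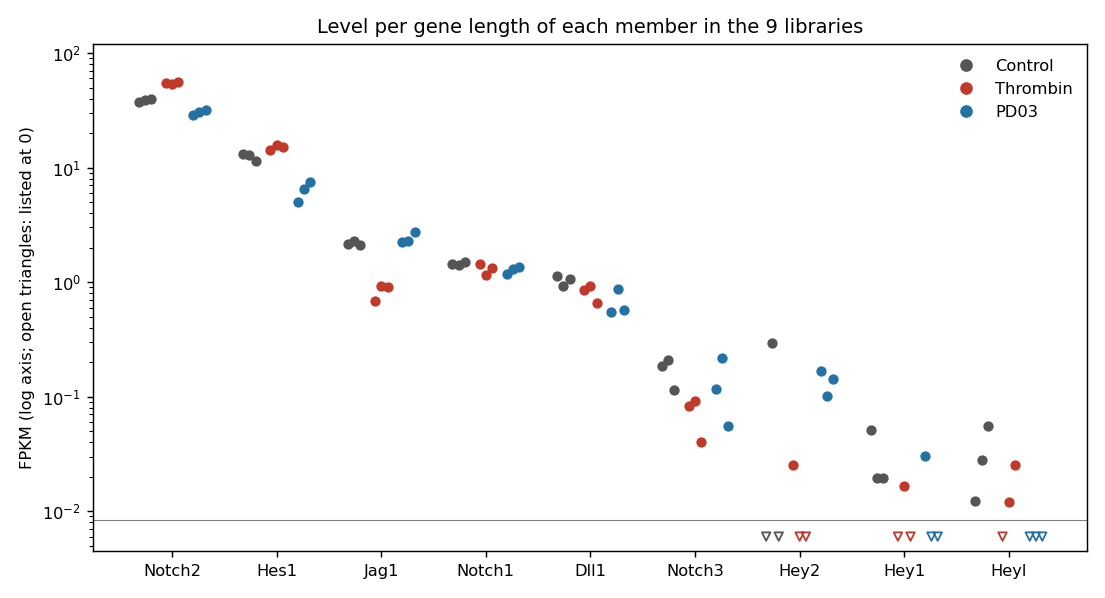
FPKM of the 9 Notch genes in each library on a log axis, ordered by mean level, with control in grey, thrombin in red and PD03 in blue, and open triangles for libraries in which the gene was listed at 0. Notch2 and Hes1 lie above 4 FPKM in all 9 libraries, while Hey1, Hey2 and Heyl stay below 0.3 FPKM.

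Among the receptors, Notch2 (ENSRNOG00000018835) supplied nearly all of the receptor message. Notch2 made up 95.5 ± 0.172% of the summed FPKM of Notch1 to Notch4 in the control group, 97.2 ± 0.216% in the thrombin group and 95.3 ± 0.197% in the PD03 group (n = 3 each). Its levels for comparison between groups are given as CPM, counts scaled by TMM to a library of 1e+06. In the control libraries Notch2 stood at 428, 455 and 459 CPM, in the thrombin libraries at 636, 628 and 653 CPM, and in the PD03 libraries at 363, 379 and 402 CPM. The 3 groups did not overlap, with thrombin highest and PD03 lowest. Thrombin gave a log2 fold change of 0.51 (adjusted p = 4.6e-15, standard error 0.04), a 1.43-fold difference under the fold threshold and so not called. With PD03 against thrombin Notch2 fell by 0.75 on the log2 scale, that is 1.68-fold (adjusted p = 1.3e-20, standard error 0.04), and with PD03 against control the difference was -0.23 (adjusted p = 2.3e-06), which was not called.

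Notch1 (ENSRNOG00000019322), the founding member of the receptor family, was close to level across the groups. It stood at 13.1, 13.1 and 13.8 CPM in the control libraries, 13.5, 10.8 and 12.4 CPM with thrombin, and 11.7, 13.0 and 13.5 CPM with PD03. All 3 groups overlapped. The log2 fold change was -0.12 with thrombin (95% interval -0.33 to 0.09), 0.06 with PD03 against thrombin (-0.16 to 0.27) and -0.07 with PD03 against control (-0.28 to 0.15), with adjusted p of 0.45, 0.70 and 0.67 in edgeR's test, so a difference of the size of the fold threshold lies outside each interval.

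Notch3 (ENSRNOG00000004346), known mainly as the receptor of vascular mural cells, was measured with few reads. The counts were 24, 24 and 13 in the control libraries, 10, 12 and 5 with thrombin, and 17, 26 and 7 with PD03. The thrombin libraries lay below all control libraries on the CPM scale, at 0.291 to 0.658 CPM against 0.821 to 1.52 CPM, whereas the PD03 libraries spread from 0.429 to 1.68 CPM and overlapped both. Notch3 fell in the thrombin group, with a log2 fold change of -1.22 (adjusted p = 0.033, standard error 0.44). That call was not made by DESeq2 (adjusted p = 0.064), nor without Control replicate 1 (0.088), Control replicate 2 (0.13) or Thrombin replicate 3 (0.16), and over all its alternatives the adjusted p ran from 0.020 to 0.47. With PD03 against thrombin the log2 fold change was 0.93 (adjusted p = 0.088). Leaving out PD03 replicate 3 made it 1.28 (adjusted p = 0.020), whereas leaving out PD03 replicate 2 made it 0.39 (adjusted p = 0.57) and leaving out Thrombin replicate 3 made it 0.66 (adjusted p = 0.29).

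Markers of mural cells were examined beside Notch3. The summed level of the 9 mural markers (Acta2, Rgs5, Cspg4, Pdgfrb, Mcam, Abcc9, Kcnj8, Des and Myh11) was 1018 to 1136 CPM in the control libraries, 1110 to 1155 CPM with thrombin and 1853 to 1902 CPM with PD03. Acta2 carried the sum in the PD03 group, with a mean of 1457 CPM against 526.1 CPM with thrombin, whereas Pdgfrb fell from 503.4 to 307.8 CPM. Of the 8 that were tested, 2 were called higher with thrombin, and 3 were called higher and 1 lower with PD03 against thrombin. These 2 comparisons called 8.06% and 15.9% of all tested genes in either direction. Rgs5, a marker of pericytes, had at most 9 counts in a library. Summed markers of the other lists also differed between groups, at 60830 to 72110 CPM without PD03 against 103200 to 106400 CPM with it for 11 osteoblast markers, 130.8 to 163 against 188.1 to 195.6 CPM for 10 myeloid markers, of which Ptprc, Cd68, Adgre1, Itgam, Lyz2 and Tyrobp averaged under 10 counts, and 68.6 to 74.6 CPM with thrombin alone against 88.7 to 104.2 CPM in the other groups for 5 chondrocyte markers. The osteoblast sum was nearly all Col1a1, Col1a2 and Sparc and the myeloid sum mostly Ctsk. In PD03 against thrombin the osteoblast genes Runx2 (-0.67) and Spp1 (-1.80) and the myeloid gene Cd14 (-0.91) fell on the log2 scale. The osteoblast gene Alpl, with 6 counts in each thrombin library, rose in that comparison (3.14). The chondrocyte sum was mostly Col2a1, which fell in thrombin against control (-0.78), whereas Sox9 (0.90) and Acan (1.29) rose. Col9a1 and Comp were not called there. The part of these changes in the levels of the Notch genes was not tested, and in bulk RNA fewer cells of a type and less message per cell cannot be told apart.

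**Figure D2:**
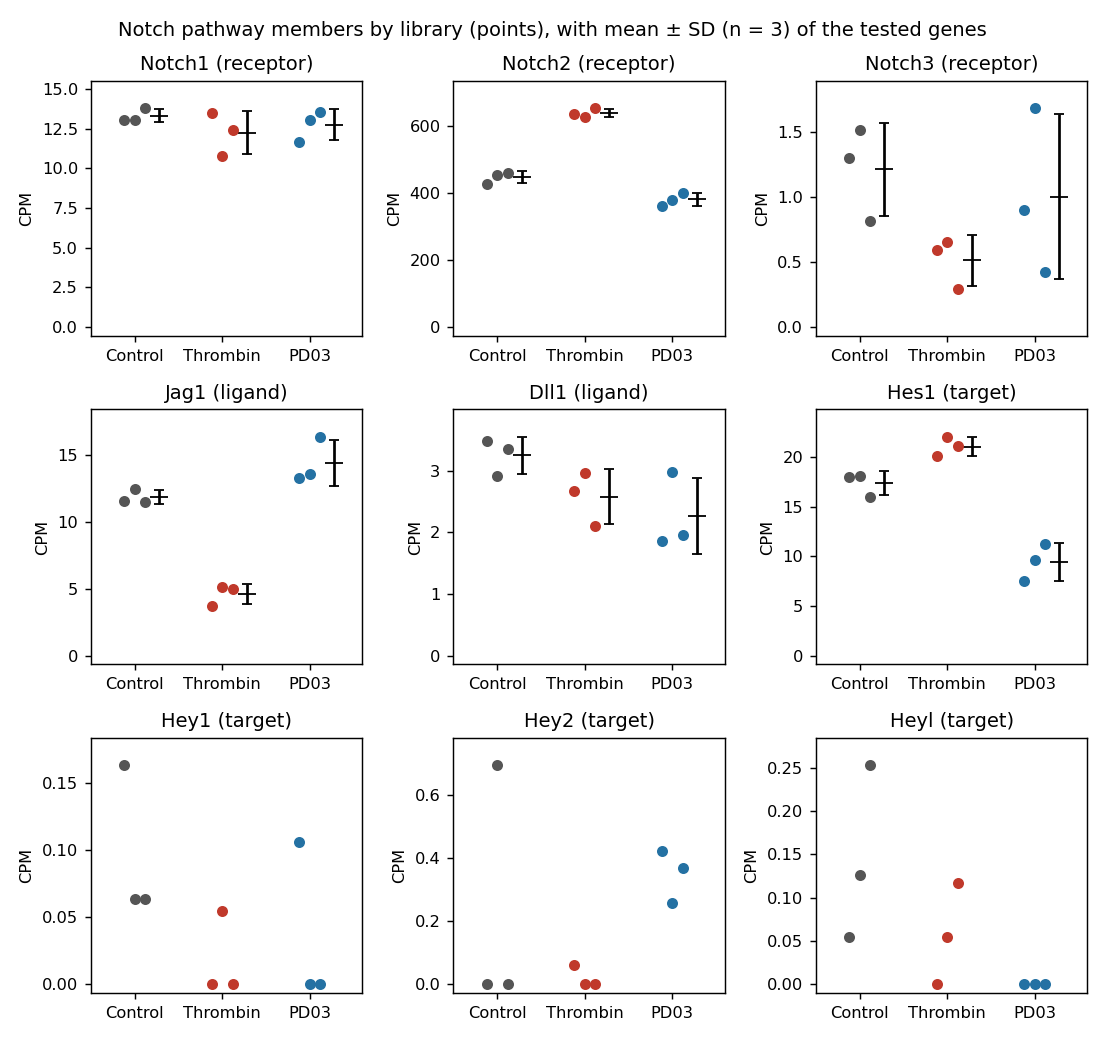
CPM after TMM scaling of each Notch gene (1 panel per gene, linear axes of different height), with 1 point per library and, for the 6 tested genes, the mean ± SD over 3 libraries. Notch2 and Hes1 are highest in the thrombin libraries and lowest in the PD03 libraries, and Jag1 is lowest in the thrombin libraries.

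Jag1 (ENSRNOG00000007443), which encodes the ligand Jagged1, had the largest fold changes among the tested members in both comparisons that involve the thrombin group. Its levels were 11.6, 12.4 and 11.5 CPM in the control libraries, 3.75, 5.10 and 5.01 CPM in the thrombin libraries and 13.2, 13.5 and 16.3 CPM in the PD03 libraries. Every thrombin library lay below every other library, and on this scale the PD03 libraries all lay above the control libraries. In FPKM, which is not scaled by TMM, PD03 replicate 1 (2.25) lay below Control replicate 2 (2.27). Jag1 fell in the thrombin group, with a log2 fold change of -1.35 (adjusted p = 6.9e-11, standard error 0.14), and the PD03 group lay 1.63 above thrombin alone (adjusted p = 7.0e-14, standard error 0.13). The PD03 group differed from control by 0.28 (adjusted p = 0.052, standard error 0.12), which was not called, and the adjusted p under the other settings ran from 0.036 to 1.

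Dll1 (ENSRNOG00000059984), which encodes a Delta-type ligand, was lower expressed and changed little beside its spread. It stood at 3.48, 2.90 and 3.35 CPM in the control libraries, 2.68, 2.96 and 2.10 CPM with thrombin and 1.85, 2.98 and 1.96 CPM with PD03. The PD03 libraries overlapped both other groups through PD03 replicate 2. The log2 fold changes were -0.33 with thrombin (adjusted p = 0.31), -0.20 with PD03 against thrombin (adjusted p = 0.51) and -0.53 with PD03 against control (adjusted p = 0.066). Without PD03 replicate 2 the last of these became -0.77 (adjusted p = 0.019) and was called, as it was with library totals (-0.65, adjusted p = 0.021), over a range of adjusted p from 0.019 to 1.

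The makeup of the ligands moved with Jag1. Jag1 held 67.5 ± 3.13% of the summed FPKM of Jag1, Jag2, Dll1 and Dll3 in the control group, 50.3 ± 6.15% in the thrombin group and 77.1 ± 6.53% in the PD03 group (n = 3 each). The ranges did not overlap between thrombin, at 44.7 to 56.8%, and the other groups, which overlapped each other at 65.7 to 71.2% and 69.6 to 81.3%. Set against the main receptor, the FPKM of Notch2 was 17.8 ± 0.866 times that of Jag1 in the control group, 66.5 ± 11.8 times with thrombin and 12.6 ± 0.852 times with PD03. Jag2 had 2 counts in 1 thrombin library and 0 in all others, and Dll3 had at most 4 counts in a library. The ligand Dll4 had no row under that name and is missing from the sum.

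Genes were also sought whose levels followed Jag1 most closely. By Pearson's correlation of log2 CPM over the 9 libraries, the nearest genes of all tested were Suox (r = 0.993), Arid5b (r = 0.990) and Clec11a (r = 0.990). The 9 points are 3 groups of 3 libraries, so r mostly describes the order of the groups. Clec11a, for example, had group means of 32.4 CPM in control, 14.1 CPM with thrombin and 40.6 CPM with PD03.

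**Figure D3:**
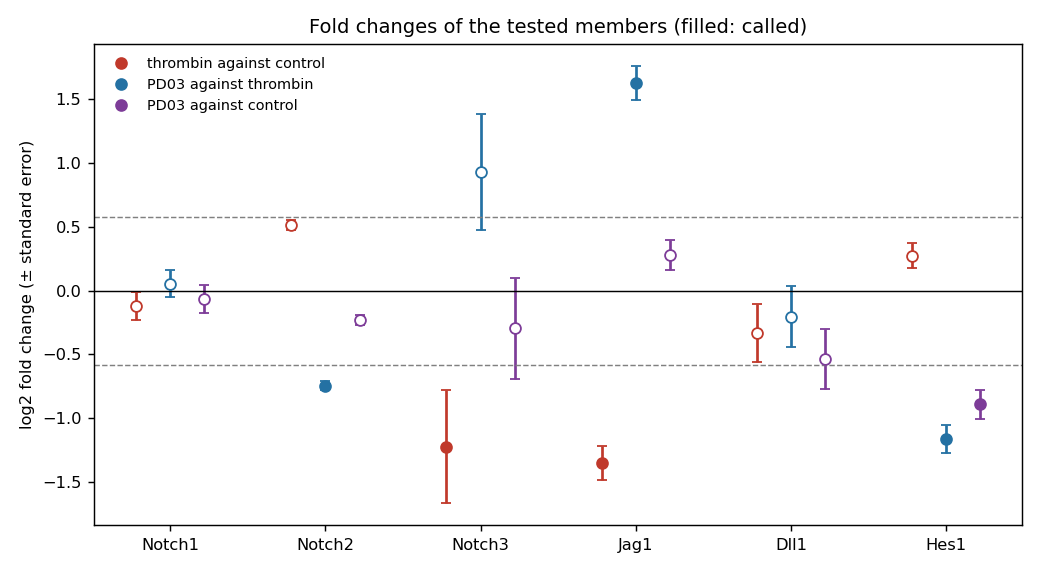
Log2 fold change with its standard error for the 6 tested Notch genes in thrombin against control (red), PD03 against thrombin (blue) and PD03 against control (purple), filled where called, with dashed lines at the fold threshold of 0.58. Jag1 has -1.35 with thrombin and 1.63 with PD03, while Hes1 has 0.28 and -1.17 and Notch2 has 0.51 and -0.75.

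Of the target genes Hes1, Hey1, Hey2 and Heyl, only Hes1 (ENSRNOG00000001720) was measured with more than 11 counts in any library. Hes1 encodes a repressor that is switched on by activated Notch in many tissues and also responds to other signals. It stood at 18.0, 18.1 and 16.0 CPM in the control libraries, 20.0, 22.0 and 21.1 CPM in the thrombin libraries and 7.47, 9.65 and 11.2 CPM in the PD03 libraries. No group overlapped another, and all PD03 libraries were the lowest. Thrombin alone gave 0.28 on the log2 scale (adjusted p = 0.035, standard error 0.10), a 1.21-fold difference that was not called. Under other settings the adjusted p ran from 0.015 upwards, with 0.057 in DESeq2 and 0.15 in edgeR's test without Control replicate 3. In the PD03 group Hes1 fell by 1.17 below thrombin (adjusted p = 4.4e-12, standard error 0.11) and fell by 0.89 below control (adjusted p = 1.4e-08, standard error 0.11), that is 2.24-fold and 1.85-fold lower. Hes1 was the only member called in PD03 against control.

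Promoter sequences of 300 bases (250 before to 50 after the start site) were taken from RefSeq on the GRCr8 assembly, which is newer than the builds named for these data, and were found for 8 of the 9 members (not Hey1). They were searched on both strands for TGGGAA, the core of the site that RBPJ binds, and for CACGTG, an E-box bound by Hes and Hey proteins. TGGGAA occurred in 4 of the 8 (Notch3, Dll1, Hes1 and Hey2) and in 25.7% of all 33469 promoters of this length, and CACGTG occurred in 0 of the 8 and in 6.4% of all. Hes1, with the fall in PD03, Hey2 and Jag1 are shown, with matches in capitals. Hes1 holds 2 matches in the same orientation that begin 123 and 109 bases before the start site, and Hey2 holds 2 in opposite orientations that begin 175 and 60 bases before it. Jag1 holds no match to either motif in this window. Hey2 had too few reads to be tested and was not among the called members. Of the called members that are not shown, Notch2 holds no match, and Notch3 holds 1 TGGGAA that begins after the start site. A match describes the letters only.
Hes1, chr11:84212996-84213295, minus strand: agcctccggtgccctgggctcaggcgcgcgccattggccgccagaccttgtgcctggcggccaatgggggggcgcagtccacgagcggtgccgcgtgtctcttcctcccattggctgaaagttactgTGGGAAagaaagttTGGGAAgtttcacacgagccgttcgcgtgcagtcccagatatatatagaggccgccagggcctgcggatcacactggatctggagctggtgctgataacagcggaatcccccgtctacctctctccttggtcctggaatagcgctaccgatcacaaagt
Hey2, chr1:28640850-28641149, plus strand: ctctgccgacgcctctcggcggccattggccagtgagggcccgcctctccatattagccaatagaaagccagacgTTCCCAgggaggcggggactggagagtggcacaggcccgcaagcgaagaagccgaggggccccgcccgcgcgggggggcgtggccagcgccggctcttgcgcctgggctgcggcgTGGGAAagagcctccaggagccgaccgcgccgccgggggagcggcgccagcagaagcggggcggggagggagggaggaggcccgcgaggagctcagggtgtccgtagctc
Jag1, chr3:144894834-144895133, minus strand: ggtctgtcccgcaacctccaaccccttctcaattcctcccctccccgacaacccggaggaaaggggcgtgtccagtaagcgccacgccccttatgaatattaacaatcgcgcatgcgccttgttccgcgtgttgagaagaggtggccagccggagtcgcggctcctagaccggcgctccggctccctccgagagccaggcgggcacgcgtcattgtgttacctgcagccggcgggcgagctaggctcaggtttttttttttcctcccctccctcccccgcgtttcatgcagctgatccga

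The 3 Hey genes, whose products are close relatives of Hes1 and pair with it, did not have enough reads to be tested. Hey1 (ENSRNOG00000062882) had 3, 1 and 1 counts in the control libraries, 0, 1 and 0 with thrombin and 2, 0 and 0 with PD03. Heyl (ENSRNOG00000015318) had 1, 2 and 4 counts in the control libraries, 0, 1 and 2 with thrombin and 0 in each PD03 library. Taking 3 counts per group as the limit of detection, for counting error only, gives 0.0599, 0.0575 and 0.0592 CPM for control, thrombin and PD03. With the PD03 group set at that limit, Heyl was 2.36-fold lower than the 7 counts of the control group. The 95% counting interval of the ratio reached 0.686, so a smaller difference is not excluded. Without the filter on low counts edgeR's test gave an adjusted p of 0.082. For Hey1 the ratio of thrombin to control was 0.192 with a 95% counting interval of 0.00405 to 1.71. A difference in Hey1 between groups was not detectable at this depth.

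Hey2 (ENSRNOG00000013364) had 0, 11 and 0 counts in the control libraries, 1, 0 and 0 in the thrombin libraries and 8, 4 and 6 in the PD03 libraries. All 3 PD03 libraries lay above all thrombin libraries, and the control reads all came from Control replicate 2. Pooled over libraries, Hey2 was 18.6 times as high with PD03 as with thrombin, with a 95% counting interval of 2.93 to 773, and 1.62 times as high as in the control group (0.723 to 3.79). These intervals cover counting error only and leave out the spread between libraries. When the filter on low counts was dropped, edgeR's test gave a log2 difference with an adjusted p of 0.0090 between PD03 and thrombin, 0.084 between thrombin and control and 0.65 between PD03 and control.

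Markers of endothelial cells, in which Hey2 and other Notch genes are prominent, were low. Tie1 had 0 or 1 counts in every library, Esam at most 4 and Pecam1 at most 8. The summed level of the 7 endothelial markers found (Pecam1, Kdr, Tie1, Tek, Vwf, Egfl7 and Esam) was 27.4 to 30.9 CPM in control, 33.9 to 35.3 CPM with thrombin and 46.8 to 52.1 CPM with PD03, most of it from Egfl7 and Tek. Of the 4 tested, Kdr and Tek were called higher with PD03 against thrombin, and Kdr and Egfl7 against control. These comparisons called 15.9% and 8.97% of all tested genes in either direction. The part of endothelial cells in the Hey2 counts was not tested.

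Beyond the 9 members, 56 further genes of the pathway were listed by role, of which 53 were found and 47 tested. Thrombin against control called 3 of the 47 higher and 0 lower (the background was 8.06% of tested genes), and PD03 against thrombin called 3 higher and 2 lower (background 15.9%). PD03 against control called 1 higher and 1 lower (background 8.97%). The 0 lower with thrombin was also the number by DESeq2 and voom, while 10 of the 47 were lower at an unadjusted p under 0.05, as were 19.3% of all tested genes. The median log2 fold change of the 47 was -0.03, 0.04 and 0.01 in these comparisons, beside -0.01, 0.01 and 0.00 for all tested genes. Without Thrombin replicate 2 or PD03 replicate 1, PD03 against thrombin called 1 higher, with 1 and 3 lower.

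Rbpj, the DNA-binding partner of all Notch receptors, was the clearest change among the nuclear genes. Its means were 244 ± 7.72 CPM in control, 219 ± 4.09 CPM with thrombin and 137 ± 5.86 CPM with PD03 (n = 3 each). The PD03 libraries lay at 131 to 141 CPM, below all thrombin libraries (214 to 222 CPM), which in turn lay below all control libraries (237 to 252 CPM). Rbpj fell in the PD03 group, with a log2 fold change of -0.67 relative to thrombin (adjusted p = 1.1e-17, standard error 0.04) and -0.83 relative to control (adjusted p = 1.8e-20, standard error 0.04), and thrombin alone gave -0.16 (adjusted p = 0.0020), which was not called. It was the only 1 of 12 tested coactivators and corepressors to be called. Of all tested genes, 15.9% were called in PD03 against thrombin and 8.97% in PD03 against control. The other 11 nuclear genes, among them Maml1 to Maml3, Ep300, Crebbp, Ncor1, Spen and Hdac1, were below the fold threshold in all 3 comparisons.

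Lfng, which encodes the fringe glycosyltransferase that modifies Notch receptors and alters their choice of ligand, stood at 12.1 ± 1.43 CPM in control, 22.0 ± 2.08 CPM with thrombin and 14.5 ± 2.05 CPM with PD03 (n = 3 each). Its log2 rise with thrombin was 0.87 (adjusted p = 1.0e-08, standard error 0.11), a call made under all 20 alternatives. With PD03 added Lfng fell by 0.60 (adjusted p = 4.9e-06, standard error 0.10), just past the fold threshold. That fall was 0.52 without Thrombin replicate 2 and 0.50 without PD03 replicate 3, under the threshold. The other tested glycosyltransferases Pofut1, Poglut1 and Rfng were not called.

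Of the remaining receptors and ligands, Notch4 had 6 to 24 counts per library and was not called in any comparison by edgeR or DESeq2, with a log2 fold change of -0.79 in PD03 against thrombin (adjusted p = 0.069) that voom did call. Dner, an EGF-repeat membrane protein described as a Notch ligand without the usual binding domain, stood at 12.5 ± 0.724 CPM in the control libraries, 23.8 ± 1.10 CPM in those with thrombin and 19.4 ± 0.665 CPM in those with PD03 (n = 3 each). Thrombin raised it by 0.94 on the log2 scale (adjusted p = 2.4e-11, standard error 0.09). Against control it was also called in the PD03 group (0.64, adjusted p = 2.5e-07). The latter call was not made with library totals (0.53), by edgeR's test against the fold threshold (glmTreat) or from the FPKM values (0.42 to 0.51). Dlk2, a Delta-like protein that also lacks that domain, had 4 to 12 counts in the control libraries and 13 to 31 with thrombin, which is a log2 difference of 1.62 (adjusted p = 0.0068, standard error 0.47). Without Thrombin replicate 2 Dlk2 was no longer called (1.32, adjusted p = 0.070), nor was it with glmTreat or from the FPKM values with 1 added.

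The genes that process the receptors changed by less than the fold threshold in most cases. Of the 9 tested sheddase, furin and γ-secretase genes, 0 were called with thrombin and 0 in PD03 against control by edgeR, DESeq2 or voom, although 6 and 5 had an unadjusted p under 0.05 in edgeR's test, a mark passed by 37.8% and 47.1% of all tested genes. With PD03 against thrombin 2 of the 9 were called, both higher and both subunits of γ-secretase, beside 15.9% of all tested genes. Psenen had 12.4 ± 1.20, 9.71 ± 0.704 and 15.9 ± 2.83 CPM in the control, thrombin and PD03 groups (n = 3 each), a log2 rise of 0.72 over thrombin (adjusted p = 1.9e-06, standard error 0.12). Aph1b went from 10 to 11 counts per thrombin library to 17 to 30 per PD03 library (log2 rise 1.09, adjusted p = 0.017). Without PD03 replicate 1 neither was called (Psenen 0.56 with adjusted p = 2e-04, Aph1b 0.88 with adjusted p = 0.10), and Aph1b was not called without Thrombin replicate 2 either (adjusted p = 0.052). The proteases Adam10 and Adam17 were not called in any comparison.

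The genes for ubiquitin ligases and endocytosis of ligands and receptors, among them Mib1, Numb, Numbl and Itch, numbered 12 tested and 0 called in each of the 3 comparisons by edgeR, DESeq2 or voom, while 3, 7 and 2 of them had an unadjusted p under 0.05 in edgeR's test, beside 37.8%, 55.2% and 47.1% of all tested genes. Among other targets and partners of Hes proteins, 1 of 6 tested was called, only in PD03 against thrombin (15.9% of all tested genes). This was Hes7, known from the segmentation clock of the embryo, which had 7 to 24 counts in control, 5 to 12 with thrombin and 17 to 23 with PD03 and rose by 1.34 on the log2 scale with PD03 against thrombin (adjusted p = 0.014, standard error 0.46). It was not called without Thrombin replicate 2 (adjusted p = 0.078), Thrombin replicate 3 (0.057) or PD03 replicate 3 (0.068). Nrarp, a feedback target of Notch, had at most 6 counts in a library, and Hes5 at most 3. Hes6 had more reads, with means of 30.6, 28.5 and 34.2 CPM in the control, thrombin and PD03 groups. Its log2 change with PD03 against thrombin was 0.27 (adjusted p = 0.0024 in edgeR's test), under the fold threshold and opposite in sign to that of Hes1.

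**Figure D4:**
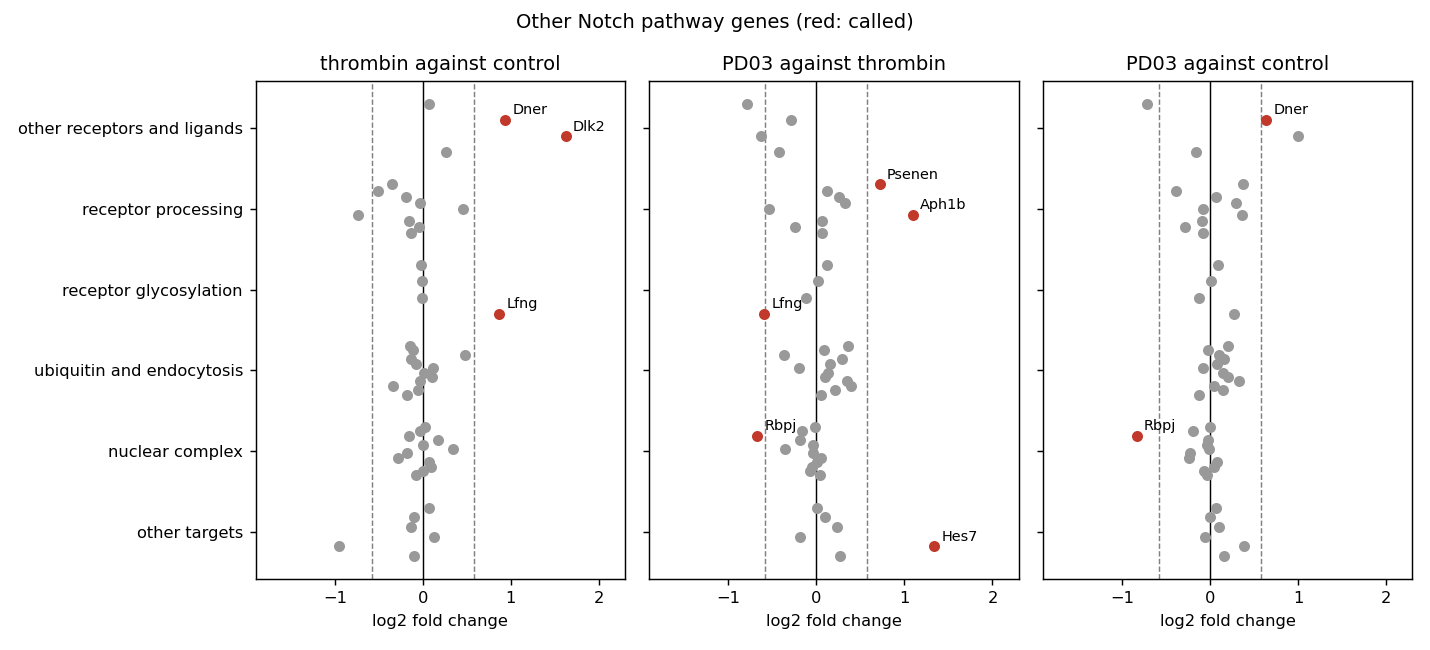
Log2 fold change of the 47 tested Notch pathway genes outside the 9 members, by role (rows) and comparison (panels), in red and named where called, with dashed lines at a fold threshold of 0.58 on either side. Rbpj has -0.67 with PD03 against thrombin and -0.83 against control, and Lfng has 0.87 with thrombin.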

How the data were processed

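According to the paper, the authors used fastp for trimming, HISAT2 for alignment to Rnor_6.0 and featureCounts for counting. The submitters' processing notes instead list HTSeq 0.13.5 and the build mRatBN7.2, with no annotation release named. The deposited table holds a raw count and an FPKM value per gene and library. Each deposited FPKM value equalled the count divided by the library total and by a fixed gene length. The library kit as named does not mark strand, so reads of overlapping antisense genes cannot be told apart.

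Raw counts were filtered with filterByExpr (minimum count 10), scaled by TMM and fitted for all 9 libraries with edgeR 4.0.16 (glmQLFit, glmQLFTest, R 4.3.3) with Benjamini-Hochberg adjustment over 13256 genes. The procedure was tested on simulated data. Standard errors came from the F statistic, 95% intervals assume a normal distribution, and ratios of low counts have exact conditional binomial intervals. DESeq2 1.42.0 and limma 3.58.1 served as alternatives. Same-numbered libraries were not paired: their deviations from the group means correlated between -0.05 and 0.05. The members and lists were chosen with earlier results of these data known. Members were all named, other pathway genes when called, and Rbpj in any case. Some others, such as Hes6, were named without a call. Protein sequences and 6 listed symbols without a row under that name were not analysed here.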

Additional observations from a re-analysis of the deposited data

How the results depend on the processing

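In thrombin against control, 2 members were called. The number was 1 (Jag1 without Notch3) with DESeq2, with glmTreat, with a minimum mean count of 50 per gene (which removes Notch3 from the test) and from the FPKM values with 1 added (with or without the filter) or 0.1 added, and it was 4 with no fold threshold (Notch2 and Hes1 added). Leaving out 1 library gave 1 to 2, with 1 without Control replicate 1, Control replicate 2 or Thrombin replicate 3. In PD03 against thrombin, the 3 members called stayed the same genes when library totals, DESeq2 size factors, DESeq2, voom or glmTreat were used, Notch2 was lost with a log2 fold change above 1 required (2 members), Hey2 was added without the filter, and Notch3 without PD03 replicate 3. In PD03 against control, 1 member was called. The number was 2 with library totals and from the FPKM values with 0.1 added (Dll1 added in both), and 2 with no fold threshold (Notch2 added). It was 0 with a log2 fold change above 1 required in edgeR, and DESeq2 also called 0 at that threshold. In edgeR's test 4 members had an unadjusted p under 0.05, as did 47.1% of all tested genes. Leaving out 1 library gave 1 to 2, with 2 without PD03 replicate 2. With the replicate block the numbers were 2, 3 and 1, as without it. For single members, 342 of 354 values kept their call and none changed sign with a call. The exceptions were Notch3 and Dll1, which rest on 5 to 64 counts per library, and the cause was not tested.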

Other observations

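Furin, the protease that cleaves Notch receptors during their transport to the cell surface, was picked out after its values were seen. Its means were 203 ± 9.62 CPM in control, 280 ± 2.88 CPM with thrombin and 192 ± 5.85 CPM with PD03 (n = 3 each), and the thrombin libraries lay above all others. Its log2 fold changes of 0.46 with thrombin (adjusted p = 9.8e-13, edgeR) and -0.54 with PD03 against thrombin (adjusted p = 3.2e-15) were both under the fold threshold.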
